A study of Mus musculus with 64 samples.

Results

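Expression of 10 cytokine genes was examined in mouse pancreatic tumor cells: Il1a, Il1b, Il1rn and Il33 of the interleukin-1 family, Il6, Il11 and Lif of the interleukin-6 family, and the colony-stimulating factors Csf1, Csf2 and Csf3. They were chosen by name, and all 10 were found among the 39017 genes of the count table. The tumor lines came from KPC mice, which carry Trp53 R172H and Pdx1-Cre, a recombinase driven in the pancreatic lineage, on a mixed C57BL/6 background. The lines were 7 clonal lines, each standing for 1 clone, and KPC1. According to the study, the clones were derived from the same mouse tumor. Tests that use lines as replicates therefore measure the spread among sister clones and KPC1, and the clones do not stand for independent tumors. The study placed clones E, H and V in group 1 and clones K, M, N and T in group 2 by their metabolites, and KPC1 in neither. Each line had 4 libraries of cells grown alone (mono-culture) and 4 of cells sorted by green fluorescent protein after 48 h of direct coculture with fibroblasts, which gave 64 libraries. Sorting of the mono-cultures is not stated in the labels, and nothing says that the 4 libraries came from separate cultures, so p-values within a line measure only the spread between libraries, which may be technical.

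Interleukin-1 alpha and beta signal through the receptor chain Il1r1 with the accessory chain Il1rap and switch on NF-kB, while the product of Il1rn occupies the same receptor without signaling and so acts as its antagonist. Interleukin-33 uses Il1rl1 with the same accessory chain. The interleukin-6 family signals through the shared chain Il6st to JAK kinases and STAT3, and Lif is known in pancreatic cancer as a signal between stromal and tumor cells. Csf1, Csf2 and Csf3 drive the production and recruitment of macrophages and granulocytes, and tumor-derived Csf2 is known for recruiting myeloid cells to pancreatic tumors.

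Library totals ran from 11178721 to 21333683 counts. The labelled cell type was checked against 10 ductal epithelial markers, whose sum ran from 2028 to 4500.2 CPM (counts scaled to a common library total) over the mono-culture libraries and from 1715 to 3883 over the coculture libraries. Krt8, Krt18, Krt19 and Sox9 averaged at least 85.3 CPM in every line in mono-culture, and Cdh1 averaged from 0.998 to 304 CPM by line. The rest of the list was low or near 0. Over the mono-culture libraries Krt7 averaged 3.42 CPM, Muc1 2.59, Cldn7 0.18, Cldn4 0.148 and Epcam 0.143. In coculture Krt19 (log2 change -0.70) and Krt8 (-0.51) were past the threshold as lower and Sox9 (0.27) as higher. The threshold was an adjusted p under 0.1 by edgeR in the response over the 8 lines. Of all genes tested, 27.4% passed it as lower and 27.2% as higher. Of 16 fibroblast markers, 6 (Dcn, Fap, Lum, Mfap5, Postn and Thy1) were under 1 CPM in every mono-culture library. These 6 summed to at most 0.201 CPM in mono-culture and to between 14.6 and 156 CPM in coculture. The whole fibroblast list summed to 331 to 2729 CPM without fibroblasts and 676 to 3359 CPM with them. Of its 14 tested genes, 11 were past the threshold as higher in coculture, beside 27.2% of all genes tested. Of 10 leukocyte markers, with sums of 22.4 to 111 CPM without fibroblasts and 30.3 to 84.8 CPM with them, 7 were near 0. Tyrobp had no count in any library, and Ptprc had 10 counts over all mono-culture and 18 over all coculture libraries. The sums came mostly from Cd68, which went from 10.8 to 27.3 CPM in coculture (log2 change 1.37, adjusted p = 0.0108 by edgeR, higher in 8 of 8 lines), and Cd14, which went from 48.7 to 30.8 CPM (-0.56, adjusted p = 0.0188 by edgeR). Replicates 3 and 4 of clone N in mono-culture did not overlap replicates 1 and 2 in Il1rn, Il33, Lif, Csf1 and Csf2. The responses of N in these genes are given with and without replicates 3 and 4, which were left out of both cultures together.

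Stretches before the transcription starts of Il1rn, Csf1 and Il6 are shown because these genes, which moved in opposite directions in coculture, hold the same NF-kB-type letters. They were taken from RefSeq promoter windows on GRCm38.p6, in which 9 of the 10 genes had an entry and Csf3 did not. Capitals mark GGG followed by TTCC with any 3 bases between them, or the reverse complement.
Il1rn, chr2:24345310-24345339, plus strand: ggaaatatgaGGGTTTTTCCgcttctgaca
Csf1, chr3:107760578-107760659, minus strand: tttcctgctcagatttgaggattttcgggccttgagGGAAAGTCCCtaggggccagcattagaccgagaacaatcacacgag
Il6, chr5:30013034-30013113, plus strand: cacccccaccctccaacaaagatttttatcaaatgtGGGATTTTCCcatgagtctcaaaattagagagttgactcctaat

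In the 250 bases before the start, searched on both strands, these letters were found in 3 of the 13 windows of the 9 genes, 1 window a gene, and in 4.65% of 32851 promoter windows of all genes. The Il1rn stretch lies before one of several starts of the gene and overlaps an exon of another of its transcripts, whereas the other stretches overlap no exon of their gene. The AP-1-type letters TGANTCA were found in 5 of the 13 windows, those of Il1rn (at another start), Il1a, Il6, Il11 and Lif, and in 6.75% of all windows. The C/EBP-type letters TTNNGCAA were found in 3, those of Il6, Csf2 and Il33, and in 9.56% of all windows. The STAT-type letters TTCNNNGAA were found in none of the 13 and in 7.02% of all windows. These are letter matches and show no binding.

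The tumor cells transcribed 5 of the 10 genes in substance. Per length, as RPKM, which scales reads to gene length and library total, averaged over the mono-culture libraries, Csf1 had the highest level at 50.9, followed by Il1rn at 35.3, Il33 at 8.59, Lif at 4.97 and Csf2 at 3.93. In coculture Csf1 averaged 88.0 RPKM, Il1rn 10.5, Csf2 10.3, Il33 9.33 and Lif 6.89. The other genes were far lower. Il6 averaged 0.0217 RPKM in mono-culture and 0.15 in coculture, Il11 0.0272 and 0.0841, and Csf3 0.0285 and 0.0109, while Il1a and Il1b were listed at 0 in every library. The interleukin-1 receptor antagonist was thus transcribed in lines with almost no reads of the agonists it opposes.

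The plot of levels by library shows how differently the 5 genes were spread over the lines.

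**Figure D1:**
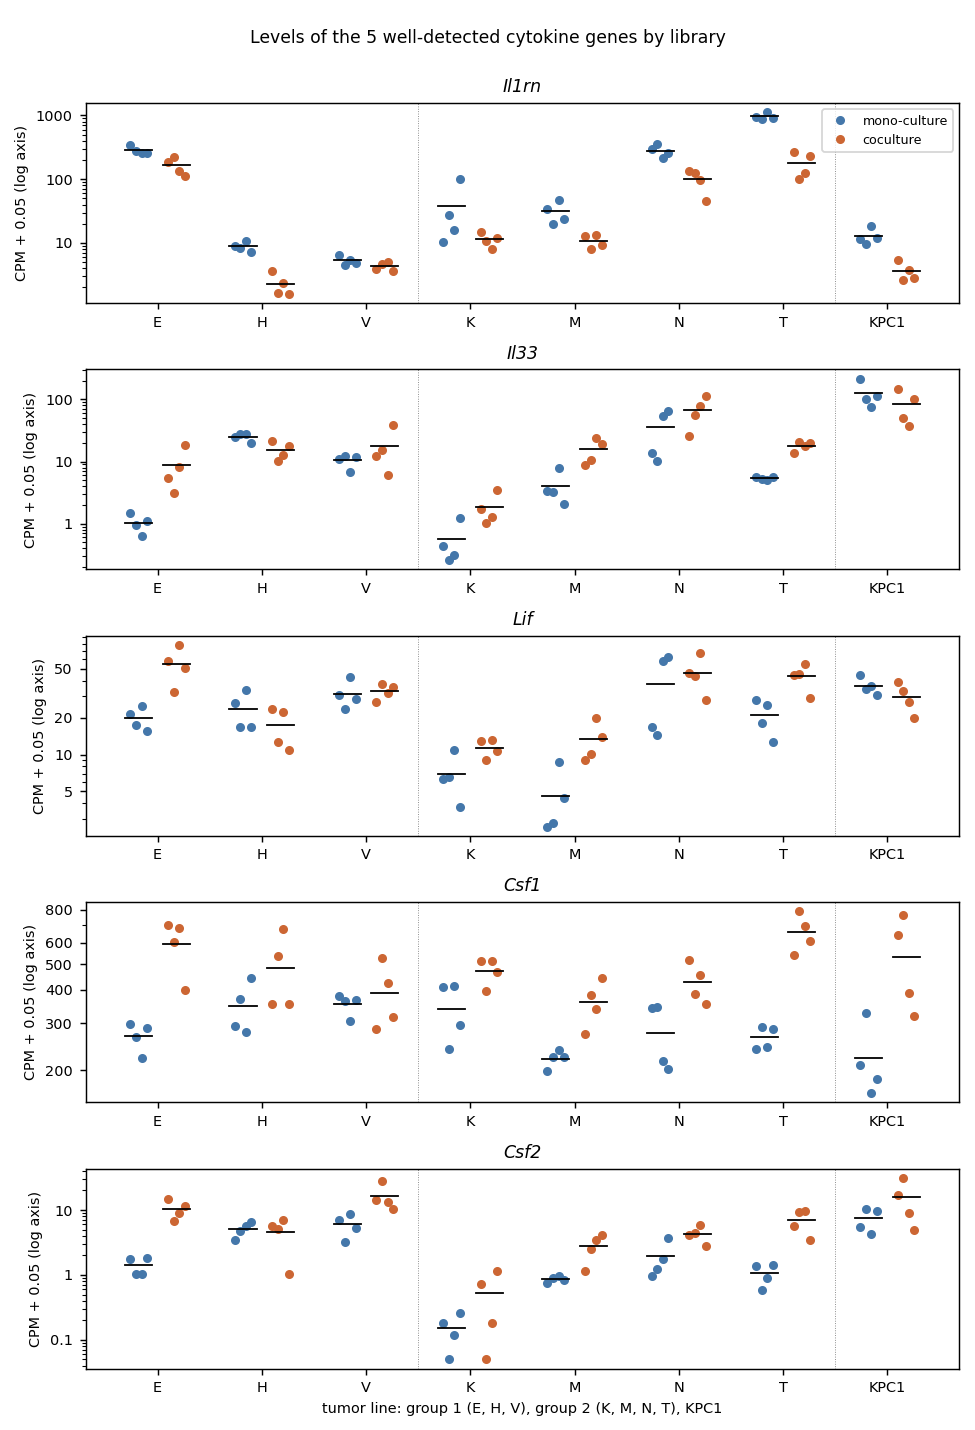
CPM plus 0.05 (log axis) of Il1rn, Il33, Lif, Csf1 and Csf2 in each of the 64 libraries, by line, with mono-culture in blue, coculture in orange and a black bar at the mean of 4 libraries. Il1rn spanned 4.41 to 1121 CPM over the mono-culture libraries and was lower in coculture, whereas Csf1 stayed between 164 and 789 CPM throughout.

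All 5 genes differed among the 8 lines in mono-culture (edgeR's quasi-likelihood test on 32 libraries, Benjamini-Hochberg adjustment, threshold 0.1), as did 96.9% of all genes tested, so the count says little about these genes in particular. Their order of lines is given first, followed by their response to coculture.

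Il1rn encodes the interleukin-1 receptor antagonist (chromosome 2, 24336853 to 24351494 on GRCm38, plus strand). In mono-culture clone T held 933, 879.6, 1121 and 923 CPM. Clone E held 345, 272, 259 and 256 CPM, and clone N held 298, 352, 218 and 256. These 3 lines stood above all others, and T stood above E and N without overlap. K held 10.2, 27.1, 16 and 98.8 CPM, the last of them far above the rest of that line. M followed at 20 to 47.9 CPM and KPC1 at 9.72 to 18.3. H held 7.27 to 10.7 CPM, and V was lowest at 4.41 to 6.52. The mean of T was 183 times that of V. E and N could not be separated, nor could K and M, or KPC1 and H (adjusted p = 7.14e-17 among the lines by edgeR).

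Il33, an alarmin held in the nucleus and released from damaged cells, followed another order (chromosome 19, 29925114 to 29960718, plus strand). KPC1 was highest at 216, 100.4, 74.5 and 113 CPM. N held 13.5, 10.1, 54.4 and 65.9 CPM, with replicates 3 and 4 well above 1 and 2. H held 20 to 27.8 CPM, V 6.74 to 12.3, T 4.98 to 5.68 and M 2.01 to 7.68. E, at 0.591 to 1.43 CPM, and K, at 0.207 to 1.18 CPM, were lowest and overlapped. KPC1 lay above all other lines without overlap, whereas N overlapped both H and V (adjusted p = 9.5e-15 among the lines by edgeR).

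Lif varied less (chromosome 11, 4257557 to 4272514, plus strand). In mono-culture N, KPC1, V, H, T and E had means from 19.8 to 37.8 CPM, and each overlapped its neighbor in that order. K and M formed a lower pair, at 3.69 to 10.9 and 2.53 to 8.67 CPM, below every library of the other lines. N again divided, with 16.6 and 14.5 CPM in replicates 1 and 2 against 58.2 and 61.9 in replicates 3 and 4 (adjusted p = 3.03e-07 among the lines by edgeR).

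Csf1, the growth factor of macrophages, was the most even of the genes (chromosome 3, 107741048 to 107760469, minus strand). Line means in mono-culture ran from 221 CPM in M to 354 CPM in V, a ratio of 1.6, and every neighboring pair of lines overlapped (adjusted p = 0.00533 among the lines by edgeR). Csf2, the granulocyte and macrophage growth factor, was low and uneven (chromosome 11, 54247271 to 54249667, minus strand). KPC1 held 5.43, 10.4, 4.27 and 9.58 CPM, V held 6.93, 3.18, 8.67 and 5.23, and H held 3.46, 4.66, 5.62 and 6.48. These 3 lines overlapped one another, N reached into the lowest libraries of H and V, and E, T and M lay between 0.537 and 1.8 CPM. K was nearly empty at 0.13, 0, 0.0671 and 0.209 CPM and lay below every other line (adjusted p = 1.32e-11 among the lines by edgeR).

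The other 5 genes were too rare to be ranked. Il1a (chromosome 2, 129299610 to 129309972, minus strand) had 5 counts over all 64 libraries and Il1b (chromosome 2, 129364570 to 129371139, minus strand) had 3, all of them in clone T. Csf3 (chromosome 11, 98701263 to 98703629, plus strand) had 31 counts, of which 14 came from V in mono-culture with reads in each of the 4 libraries, against 0 in V in coculture. H in mono-culture held 6 counts of Csf3 and KPC1 in coculture held 6, whereas K, M and N had none in either culture. A count of 0 over the 4 libraries of a line allows a level of up to 0.0425 to 0.0565 CPM, for counting error only. Il11 (chromosome 7, 4772373 to 4782859, minus strand) had 19 counts in mono-culture and 49 in coculture, and Il6 (chromosome 5, 30013114 to 30019981, plus strand) had 25 and 183.

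**Figure D2:**
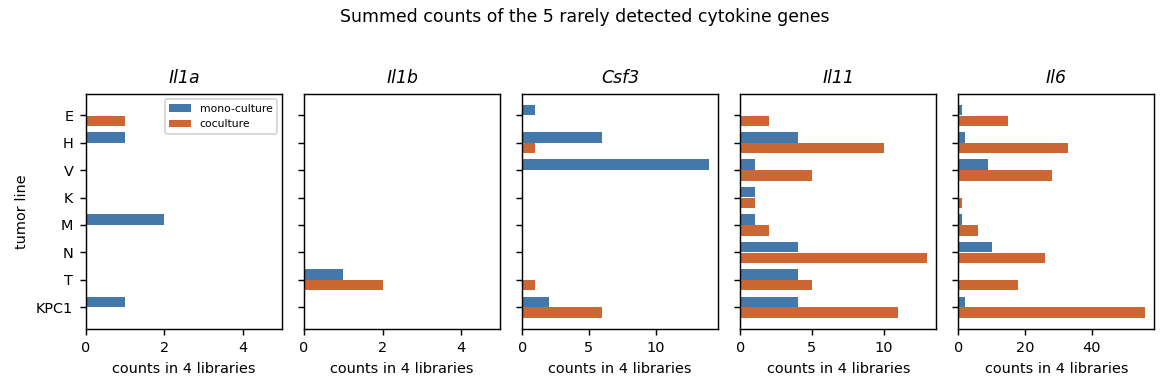
Counts summed over the 4 libraries of each line and culture for Il1a, Il1b, Csf3, Il11 and Il6, with mono-culture in blue and coculture in orange and a separate axis for each gene. Il6 reached 56 counts in KPC1 in coculture against 2 in mono-culture, whereas K had 1 count in coculture and none in mono-culture.

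The question of the cocultures was how contact with fibroblasts changed the tumor cells. Over the 8 lines, with the line as covariate and 16 sums of 4 libraries, the antagonist Il1rn fell and Csf2, Il33, Csf1 and Lif rose. Only these 5 of the 10 genes passed the filter on low counts, and all 5 were past the threshold, against 54.6% of the 14478 genes tested (27.2% higher and 27.4% lower in coculture). Il1rn changed by -1.52 on the log2 scale, to 0.35 of its mono-culture level (SE 0.21, adjusted p = 0.00123 by edgeR). Csf2 changed by 1.60 (SE 0.33, 3.03-fold, adjusted p = 0.00475 by edgeR) and Csf1 by 0.76 (SE 0.13, 1.69-fold, adjusted p = 0.00243 by edgeR). Il33 changed by 1.08 (SE 0.40, 2.12-fold, adjusted p = 0.0489 by edgeR) and Lif by 0.55 (SE 0.24, 1.46-fold, adjusted p = 0.0837 by edgeR). In sorted bulk cells, a lower share of transcribing cells and less RNA per cell cannot be told apart.

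The calls of Il1rn, Csf1 and Csf2 were kept in all 25 fits run, including those without each line. Il33 lost its call without E (log2 change 0.82, adjusted p = 0.101), M (0.94, 0.107) or T (0.97, 0.115), by edgeR, and without replicate 4 (0.85, 0.105). Lif lost its call without E (0.42, adjusted p = 0.192 by edgeR), K (0.52, 0.132), M (0.40, 0.176), N (0.58, 0.112) or T (0.47, 0.181), and without replicate 1 or 2, as well as in the libraries of the first series of sample numbers alone (0.62, 0.106). The first series, 43 of the 64 libraries, was inferred from the numbers in the sample titles. It holds every library of E and no mono-culture library of K, so K was not in that fit. When every gene with at least 1 count was tested, which called 30.7% of 25490 genes, Il6 rose by 2.97 (SE 0.49, adjusted p = 0.00137 by edgeR) and Il11 by 1.33 (SE 0.40, adjusted p = 0.0271 by edgeR), whereas Il1a, Il1b and Csf3 did not pass.

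Within single lines (4 libraries against 4, 6 of the genes tested, Il6 among them), 30 of 48 tests passed the threshold, 23 of them higher and 7 lower, against 45.6% of all tests over genes and lines (23.7% higher and 21.9% lower). Il6 passed the filter on low counts only through coculture libraries, where it reached 2.26 CPM, against at most 0.489 CPM in mono-culture. Its 5 calls as higher, in E, H, T, V and KPC1, are in these counts but are not evidence, since the filter favored them. By line, E and T had 6 of 6 called, beside 61.3% and 62.2% of all genes. M had 5, beside 38.9%, KPC1 had 4, beside 39.2%, H had 3, beside 44%, and N had 3, beside 37.4%. V had 2, beside 61.5%, and K had 1, beside 20.5%. The responses differed among the lines for all 6 genes (test of the line by culture terms, added after seeing the data), as for 71.3% of all genes.

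**Figure D3:**
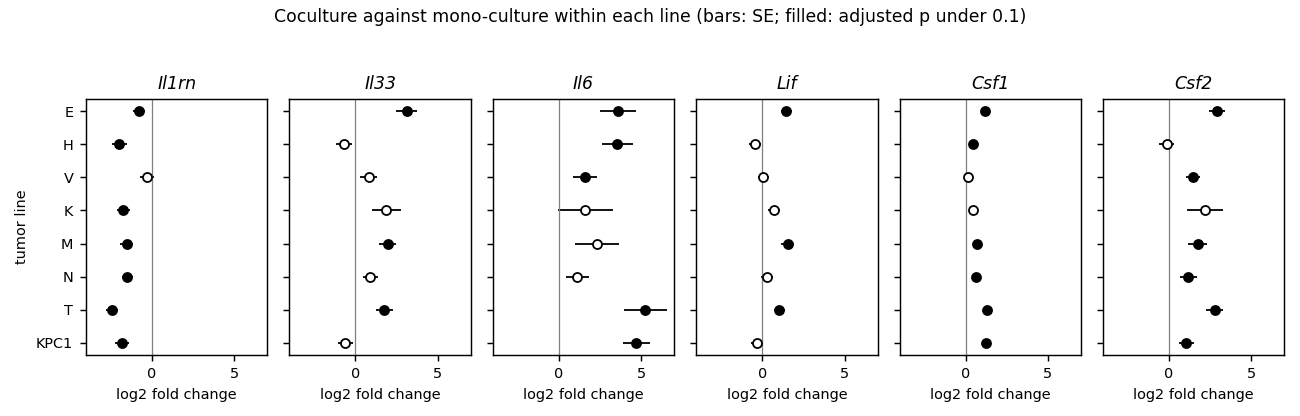
Log2 fold change of coculture against mono-culture within each line for 6 genes, with standard errors as bars and filled points for an adjusted p under 0.1. Il1rn lay below 0 in every line, from -2.41 in T to -0.29 in V, whereas Il33 and Lif lay above 0 in 6 of 8 lines.

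Il1rn was lower in coculture in every line and fell past the threshold in 7 of 8. In T the coculture libraries held 271, 102, 124 and 229 CPM, all below the lowest mono-culture library, a log2 change of -2.41 (SE 0.36, adjusted p = 1.1e-07 by edgeR). In N they held 132, 123, 97.8 and 46.1 CPM (-1.49, SE 0.35, and -1.35 without replicates 3 and 4, still past the threshold) and in E 186, 221, 136 and 114 CPM (-0.79, SE 0.34), again with no overlap, and the call in E was lost without replicate 3 (adjusted p = 0.117 by edgeR). Of the lines of low Il1rn, H and KPC1 fell by more than E and N on the log2 scale. H went to 3.56, 1.61, 2.32 and 1.53 CPM (-1.98, SE 0.46), and KPC1 to 5.26, 2.55, 3.72 and 2.72 (-1.84, SE 0.43). M went to 12.8, 7.94, 13.1 and 9.33 CPM (-1.53, SE 0.38). In K the change of -1.74 rested on replicate 4 in mono-culture. Without replicate 4 it was -0.66 and not called (adjusted p = 0.247 by edgeR). V, the lowest line in mono-culture, held 3.81, 4.66, 5.06 and 3.57 CPM, overlapping its mono-culture libraries (-0.29, SE 0.44, adjusted p = 0.594 by edgeR).

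In the main fit, which did not pair libraries, Il33 rose past the threshold in E, M and T and in none of the other 5 lines. E went from 1.43, 0.894, 0.591 and 1.05 CPM to 5.46, 3.08, 8.24 and 18.4 (log2 change 3.11, SE 0.65, adjusted p = 5.79e-05 by edgeR). M went from 3.35, 3.15, 7.68 and 2.01 to 8.69, 10.5, 24 and 19.1 CPM (1.95, SE 0.53), and T from 5.49, 5.21, 4.98 and 5.68 to 13.8, 20.3, 18 and 20 CPM (1.75, SE 0.51). In each of these lines no coculture library reached down to mono-culture. KPC1 held 146, 49.3, 36.8 and 101 CPM in coculture (-0.60, SE 0.45) and H held 21.2, 10.2, 12.8 and 18 (-0.69, SE 0.48), neither past the threshold. K, the line of lowest mono-culture mean, went from 0.389, 0.207, 0.268 and 1.18 to 1.67, 0.975, 1.24 and 3.47 CPM (1.86, SE 0.88, adjusted p = 0.156 by edgeR), and V changed by 0.80 (SE 0.49, adjusted p = 0.161 by edgeR). N held 26, 56.1, 76.9 and 112 CPM (0.91, SE 0.46, adjusted p = 0.131 by edgeR), and the change passed the threshold without replicates 3 and 4 (1.79, adjusted p = 0.0401 by edgeR) and with the replicate number as a block (1.12, adjusted p = 0.0022 by edgeR). With that block K also passed as higher, and H and KPC1 as lower. The responses differed among lines (adjusted p = 0.000187 by edgeR).

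The interleukin-6 family gave few reads of Il6 and more of Lif. Il6, a cytokine that stromal fibroblasts are known to secrete, rose past the threshold in KPC1 (2 to 56 counts, log2 change 4.69, SE 0.82), H (2 to 33, 3.56, SE 0.91), E (1 to 15, 3.59, SE 1.11), T (0 to 18) and V (9 to 28, 1.60, SE 0.71). In KPC1 the 4 coculture libraries held 34, 10, 6 and 6 counts. It was not past the threshold in N (10 to 26 counts), M (1 to 6) or K (0 to 1). The call in V was lost without replicate 2, 3 or 4. Since Il6 entered these tests only through coculture libraries, its calls are descriptions. Il11, known for its part in fibrosis, had 1 count in each culture of K and more counts in coculture than in mono-culture in the other lines, with at most 13 in a line.

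Lif rose past the threshold in E, M and T, the same lines in which the main fit called Il33. E went from 21.5, 17.5, 24.8 and 15.4 CPM to 58.3, 32.3, 78.1 and 50.7 (log2 change 1.47, SE 0.35, adjusted p = 0.000399 by edgeR). M went from 2.53, 2.70, 8.67 and 4.38 to 9.04, 10.1, 19.9 and 13.9 CPM (1.54, SE 0.39), and T from 27.8, 18.1, 25.3 and 12.7 to 44.4, 45.5, 54.7 and 28.6 CPM (1.05, SE 0.35). H (-0.44, SE 0.35), KPC1 (-0.30, SE 0.35), V (0.08, SE 0.34) and K (0.73, SE 0.38) did not pass, but K passed with the replicate number as a block. N changed by 0.29 (SE 0.34, adjusted p = 0.552 by edgeR), and by 1.52 without replicates 3 and 4 (adjusted p = 0.0118).

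Among the colony-stimulating factors, Csf1 was higher in coculture in all 8 lines and past the threshold in 6. T went from 241, 291, 245 and 286 CPM to 539.8, 789, 693 and 610.4 (log2 change 1.31, SE 0.23, adjusted p = 3.04e-06 by edgeR). KPC1 went from 209, 328, 164 and 186 to 644, 764, 391 and 319 CPM (1.25, SE 0.23), and E from 298, 267, 223 and 288 to 698, 603, 681 and 401 CPM (1.15, SE 0.23). The changes in M (0.70), N (0.63) and H (0.47) were smaller, and that of H was lost without replicate 1, 2 or 3. Without replicates 3 and 4, N changed by 0.39 and lost its call (adjusted p = 0.447 by edgeR), as it did without replicate 3. K (0.47, SE 0.23) and V (0.14, SE 0.23) did not pass, but K passed with the replicate number as a block.

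Csf2 rose past the threshold in 6 lines. E went from 1.71, 0.969, 0.967 and 1.80 CPM to 14.8, 6.78, 8.87 and 11.5 (log2 change 2.92, SE 0.50, adjusted p = 2.42e-06 by edgeR). T went from 1.34, 0.537, 0.84 and 1.35 to 5.54, 9.40, 9.60 and 3.42 CPM (2.78, SE 0.52), and V from 6.93, 3.18, 8.67 and 5.23 to 14.4, 27.5, 13.4 and 10.3 CPM (1.45, SE 0.44). The call in V was lost without replicate 2 (0.90, adjusted p = 0.114 by edgeR), and M changed by 1.75 (SE 0.58). In KPC1, where the libraries held 17.2, 31.5, 8.86 and 4.94 CPM, the change of 1.06 fell to 0.45 without replicate 2 in coculture, the library of lowest total (adjusted p = 0.504 by edgeR), and was also lost without replicate 1, 2 or 3. In N, which held 0.9, 1.19, 1.71 and 3.71 CPM in mono-culture and 4.15, 4.41, 5.75 and 2.74 in coculture, the call (1.18) was lost without replicate 1, 2 or 3, and the change was 2.02 without replicates 3 and 4 (adjusted p = 0.0729 by edgeR). H held 5.56, 5.01, 6.91 and 0.97 CPM (-0.14, SE 0.46), and its change was 0.34 without replicate 4. K, with 6 counts in mono-culture and 30 in coculture, changed by 2.19 (SE 1.09, adjusted p = 0.183 by edgeR) and did not pass.

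Within lines, fibroblast marker levels varied with Il33 and Il6 and less with Lif, Csf2, Csf1 and Il1rn. The sum of the 6 fibroblast markers that were under 1 CPM in mono-culture averaged from 56.8 CPM in V to 97.6 CPM in N over the coculture libraries of a line. Across the 32 coculture libraries, as deviations from the mean of their line, log2 CPM of Il33 had r = 0.50 (Spearman's rho 0.56) with log2 of that sum, and Il6 had r = 0.46 (rho 0.50). Lif (r = 0.02), Csf2 (-0.03), Csf1 (-0.10) and Il1rn (-0.24) had weaker values. The libraries share their line and their sort, and these values are descriptions. The part of fibroblast RNA in the change of Il33, Il6, Il11, Lif, Csf1 and Csf2 was not tested.

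**Figure D4:**
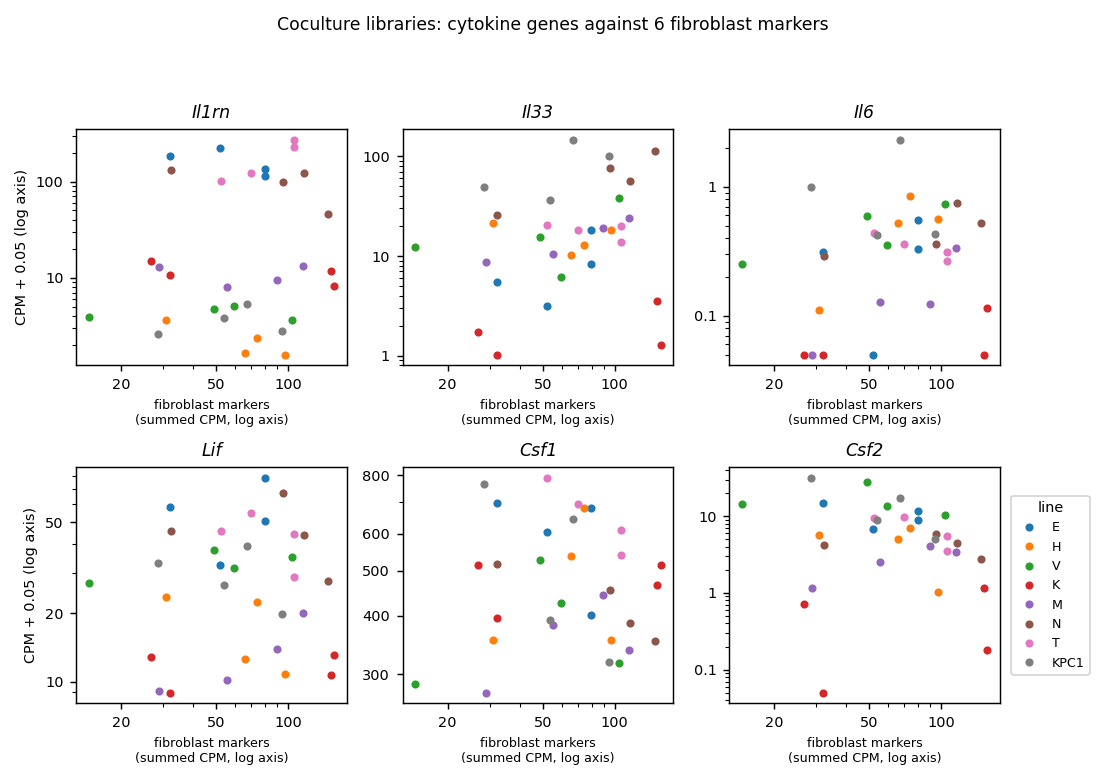
CPM plus 0.05 of 6 cytokine genes against the summed CPM of Dcn, Fap, Lum, Mfap5, Postn and Thy1 in the 32 coculture libraries, both on log axes and colored by line. Marker sums ran from 14.6 to 156 CPM over the libraries, and Il33 and Il6 had the highest correlations within lines (r = 0.50 and 0.46).

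The groups of clones were compared next, since the study separated them by metabolism. In mono-culture, 3 clones of group 1 against 4 of group 2, none of the 5 genes passed the threshold by edgeR (0.0% of 14829 genes did), and 1 had an unadjusted p under 0.05, as did 766 genes in all. DESeq2 called 117 genes and none of these. Mean Csf2 was 4.14 CPM over the 3 clones of group 1 (SD 2.45) and 0.953 CPM over the 4 of group 2 (SD 0.732), with a log2 difference of 2.11 (SE 0.88, adjusted p = 0.888 by edgeR), and the clones overlapped, E at 1.36 CPM below N at 1.88. Il1rn averaged 99.0 CPM (SD 159) in group 1 and 329 CPM (SD 439) in group 2 (-1.69, SE 1.71), and the difference was -5.53 without clone E. Lif (0.52, SE 0.69) and Il33 (0.09, SE 1.38) differed by less than their standard errors, and Csf1 (0.23, SE 0.19) by little more than its own.

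The responses to coculture did not separate the groups either. None of the 6 genes tested passed, beside 0.00637% of 15700 genes, 1196 genes had an unadjusted p under 0.05 and none of the 6 did. DESeq2 called 187 genes, none of them of the 6. The largest differences, group 1 minus group 2, were 0.78 for Il1rn (SE 0.40, adjusted p = 0.693 by edgeR), a smaller fall in group 1, and -0.61 for Il33 (SE 0.79). Lines of one group lay at both ends of the range for several genes: E rose most in Csf2, whereas H did not rise at all.

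The receptors and signaling genes of the pathways were examined in the coculture response over lines, beside 27.2% of all genes higher and 27.4% lower. Of 14 receptors, 9 were tested, 2 rose and 3 fell, shares near those over all genes, with a median log2 change of -0.23 against 0.0 over all genes. The accessory chain Il1rap rose by 0.89 (SE 0.13) from 14.7 to 26 CPM, and Il1rl1, the receptor of interleukin-33, by 1.91 (SE 0.41) from 0.513 to 1.74 CPM. Lifr changed by -1.26 (SE 0.22), Il6ra by -0.50 (SE 0.15) and the shared chain Il6st by -0.23 (SE 0.08), all past the threshold. Il1r1 (-0.27), Sigirr (-0.08), Osmr (-0.34) and Il11ra1 (-0.04) did not pass. Receptors of the colony-stimulating factors, Csf1r, Csf2ra, Csf2rb and Csf3r, averaged at most 0.16 CPM in either culture.

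Of 15 other ligands, 12 were matched by name and 5 tested, of which 1 rose and 3 fell (median -0.18). Il34, the second ligand of the Csf1 receptor, rose by 1.04 (SE 0.33). Clcf1, a cytokine of the interleukin-6 family, fell by 0.69 on the log2 scale (SE 0.08), Il18 by 0.61 (SE 0.17) and Kitl by 0.18 (SE 0.08). Osm, Il3 and Il1f10 had no count.

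**Figure D5:**
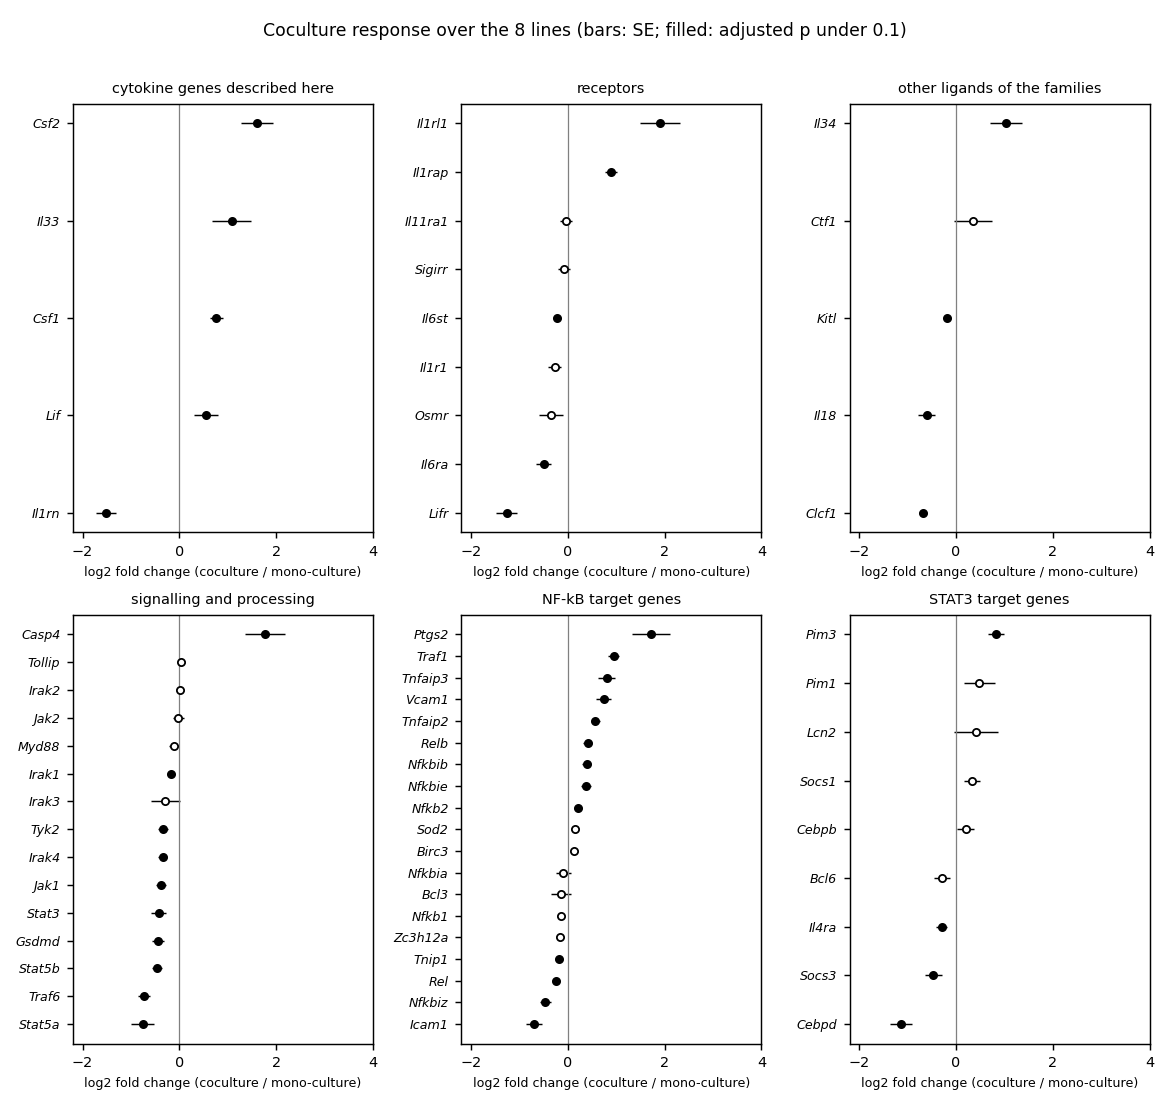
Log2 fold change of coculture against mono-culture over the 8 lines for the tested genes of 6 lists, with standard errors as bars and filled points for an adjusted p under 0.1. Il1rap and Il1rl1 rose and Lifr, Il6ra and Il6st fell, and 9 of 15 signaling and processing genes fell.

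Of 18 signaling and processing genes, 15 were tested, 1 rose and 9 fell (median -0.34). Casp4, an inflammatory caspase, rose by 1.77 (SE 0.41), whereas Traf6, the ubiquitin ligase of interleukin-1 signaling, changed by -0.73 (SE 0.13), Stat5b by -0.46 (SE 0.10) and Irak4 by -0.35 (SE 0.09). All 19 NF-kB target genes were tested, 9 rose and 4 fell (median 0.15). Traf1 rose by 0.95 (SE 0.11), Vcam1 by 0.74 (SE 0.15) and Tnfaip2 by 0.57 (SE 0.10), while the adhesion molecule Icam1 changed by -0.70 (SE 0.16), Nfkbiz by -0.46 (SE 0.12) and Rel by -0.24 (SE 0.08). Of 14 STAT3 target genes, 9 were tested, 1 rose and 3 fell (median 0.20). Pim3 rose by 0.82 (SE 0.17), whereas Cebpd changed by -1.14 (SE 0.22), Socs3, the feedback inhibitor of the pathway, by -0.47 (SE 0.18) and Il4ra by -0.30 (SE 0.11). The fibroblast marker sums above were higher in the same coculture libraries, and their part in these lists was not tested.

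The genes most like each member were found by Pearson's r of log2 CPM over the 16 sums, among 14477 genes. They were Myo15b (r = 0.97) and Tmigd1 (0.94) for Il1rn, Cdk5rap3 (0.94) and Nkiras1 (0.92) for Il33, Me1 (0.94) and Serp1 (0.94) for Lif, Bgn (0.90) and Podn (0.90) for Csf1, and Drg2 (0.96) and Ddx56 (0.96) for Csf2. The 16 sums share lines and libraries, so these values are descriptions. Between the members, the line means of Csf2 in mono-culture went with those of Il33 (r = 0.83 over 8 lines) and Lif (0.74), and Il33 with Lif (0.67), while Il1rn had r between -0.35 and 0.03 with the other 4. Among the coculture libraries, as deviations from their line, Csf2 had r = 0.56 with Lif and 0.55 with Csf1, and Csf1 had r = 0.46 with Lif. In mono-culture the same 3 values were 0.16, 0.11 and -0.38.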

How the data were processed

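Polyadenylated RNA was sequenced as strand-specific paired-end libraries of 76 bases. The authors deposited raw counts of reads per gene and a table of RPKM values, made with featureCounts and edgeR on mm10 according to the submitters' processing notes; the aligner is not given in the sources used here. The RPKM values deposited by the authors do not follow the counts exactly: 8 of 408 member values with a count were listed at 0. All columns were mapped to samples by their names.

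Counts were normalized by TMM and filtered with filterByExpr in edgeR 4.0.16 (R 4.3.3), and tested by its quasi-likelihood F-test with Benjamini-Hochberg adjustment over all genes and a threshold of 0.1, the study's. Comparisons of cultures and groups used sums of the 4 libraries of a line, and comparisons within and among lines used libraries. CPM used TMM-scaled totals, and log2 CPM a prior count of 0.5. The floor was 3 counts. The groups of clones came from the paper and the labels' clone names. All 96 pairs of libraries sharing a line and culture differed beyond counting noise (chi-square per gene 4.456 to 65.548). Alternatives used DESeq2 1.42.0, limma 3.58.1 on log2(RPKM + 1) and log2(RPKM + 0.1), RLE normalization, other filters, left-out lines and replicates, and blocks.

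On simulated counts, the test over lines recovered 84.5% of 200 genes changed by 1 on the log2 scale among 14478 genes, and the group test 42.0% of 200 changed by 2 among 14829. The test within a line, simulated for E alone, recovered 79.0% of 200 changed by 1 among 14134. False calls made up 8.6%, 10.6% and 9.2% of the calls, in that order. Unlike the real data, the simulation gave all lines the same mean for a gene. All 10 members are named. Of the other lists, up to 3 genes in each direction with the smallest p-values past the threshold in the response over lines are named, and for each tested member the 2 genes of highest r. The receptors of the colony-stimulating factors, Osm, Il3, Il1f10 and single markers are named as list members near 0 or as defining markers, and Il1r1, Sigirr, Osmr, Il11ra1, Cd68, Cd14, Krt7 and Muc1 as the other tested members of their lists. Same-numbered libraries of the 2 cultures of N deviated together (r above 0.1 in 4 of 4 pairs). The fit with the number as a block is given where it changes a call within a line. The members and lists were chosen with earlier results of these data known. The test of the line by culture terms was added after seeing the data. So were the fits without replicates 3 and 4 of N in both cultures and without replicate 2 of KPC1 in coculture. Positions are from GENCODE M21 on GRCm38, the assembly that mm10 names, and promoter sequences from RefSeq. A gene of the other ligands and part of the genotype are not reported here.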

Additional observations from a re-analysis of the deposited data

Results flagged for a closer look

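In line means, 1 line stood far from the others in 2 of the 90 sets of values examined, where chance would give about 4.5. In mono-culture, Il1rn averaged 964 CPM in T against 5.27 to 283 CPM in the other lines, and Il33 averaged 126 CPM in KPC1 against 0.512 to 36 CPM in the others.

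The coculture response differed among the 8 lines by the test of the line by culture terms (edgeR, adjusted over 14134 genes, of which 71.3% were called). The adjusted p was 0.000187 for Il33, 0.00137 for Lif, 0.00266 for Csf2, 0.00701 for Csf1, 0.0188 for Il1rn and 0.0677 for Il6. Il6 passed the filter of this test only through coculture libraries. Il33 changed by between -0.69 in H and 3.11 in E on the log2 scale, Lif by between -0.44 in H and 1.54 in M, and Csf2 by between -0.14 in H and 2.92 in E. Il1rn was lower in every line, and its responses differed in size.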

How the results depend on the processing

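Of the members, 5 were called in the response over lines, and 3 to 5 when a line or replicate was left out, the lowest without E or without T (without M, where Il33 and Lif were lost, Il6 entered the test and was called, which gave 4). Between 4 and 6 were called among lines in their response, 5 in every fit among lines in mono-culture that left out a line or replicate, and 25 to 32 tests within lines, where 30 passed with all libraries. Under DESeq2, RLE normalization, other filters, limma and a threshold of 0.05, 4 to 7 members were called over lines, none between the groups or in the difference of responses, and 25 to 32 tests within lines. In the group comparison 1 member, Csf2, was called with 28 libraries as replicates (log2 difference 2.10) and with the replicate number as a block (2.16). In the difference of responses 1, Il1rn, was called with clone and replicate number as a block (0.77). Over all genes, the group comparison called 0 by edgeR on sums, 117 by DESeq2, 217 without E, 3925 with 28 libraries and 3619 with the block, and the difference of responses called 1, 187 by DESeq2, 48 without E and 3658 with the block. Within lines, the calls over all genes went from 2894 to 1851 in K and from 5495 to 3485 in M without replicate 4, from 5285 to 2708 in N without replicates 3 and 4, and from 5534 to 2784 in KPC1 in the first series of sample numbers alone. Same-numbered libraries of the 2 cultures correlated above 0.1 in 18 of 32 pairs. In 24 of the 32, the mono-culture library correlated best with its own number among the 4 coculture libraries of its line. Same-numbered mono-culture libraries of different lines had a median r of 0.0455. Whether the numbers pair samples was not settled, and the main fits, which gave the calls above, did not pair them. In N all 4 pairs were above 0.1. With the block, 36 tests within lines passed, and 5 of 5 over lines. The 6 tests gained were Il33 in N (1.12), K (1.86), H (-0.72) and KPC1 (-0.69), Csf1 in K (0.50) and Lif in K (0.78). Il33 between the groups turned negative in the coculture sums (-0.80) and in the first series of sample numbers (-0.24), and over the left-out lines and replicates it ran from -0.97 to 1.90. In the difference of responses Csf2 was 0.07 with limma on log2(RPKM + 1), and over the left-out fits Csf1 ran from -0.46 to 0.05, Csf2 from -1.31 to 0.20, Il33 from -1.50 to 0.30 and Il6 from -1.48 to 1.51. Within lines, Il33 in KPC1 was 0.42 in the first series alone, and over the left-out replicates Csf2 in H ran from -0.38 to 0.34, Il6 in K from 0.00 to 1.92 and Lif in V from -0.08 to 0.29. The causes were not tested. Il1a, Il1b, Csf3, Il11 and Il6 had too few counts for the filter over lines, and whether deeper libraries would hold more was not tested.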
